A study of Rattus norvegicus with 16 samples.

Results

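Genes of the fibroblast growth factor (FGF) system, 10 in all, were chosen by name: the ligands Fgf1, Fgf2, Fgf5, Fgf7, Fgf10, Fgf18 and Fgf23 and the receptors Fgfr1, Fgfr2 and Fgfr3. Of these 10 genes, 9 were measured, 6 of the 7 ligands and all 3 receptors, among 18166 genes with a named probe set. Fgf18 had no probe set under its symbol in the annotation used and was not analysed here. All 16 arrays came from the sciatic nerve of male Sprague Dawley rats, 6 weeks of age, in which the nerve of 1 side had been resected and the nerve of the other side left uninjured. The groups were the injured distal nerve at 7 days post injury (DPI), the contralateral nerve at 7 DPI, the injured distal nerve at 3 DPI and the contralateral nerve at 3 DPI, with 4 arrays each, described by the labels as biological replicates. The resection was meant to keep regenerating axons out of the distal segment. The contralateral nerves came from operated animals that had also received the perioperative analgesics, and no nerve from an unoperated animal was included. The labels do not say which nerves came from the same rat.

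Fibroblast growth factors are secreted proteins that bind receptor tyrosine kinases of the FGFR family together with heparan sulfate, and the activated receptor signals through docking proteins to the RAS and ERK cascade. Most family members act over short distances between neighbouring cells, while Fgf23 is known as a hormone made by bone that needs the coreceptor Klotho. In peripheral nerve the family is known for mitogenic effects on Schwann cells and fibroblasts and for effects on axon growth and neuron survival.

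Values are log2 signals after robust multiarray averaging (RMA), and a log2 difference of 1 is a 2-fold change. A gene was called at a Benjamini-Hochberg adjusted p under 0.05 over all 18166 genes in limma with at least a 2-fold change. The ± of a log2 change is the standard error from limma (n = 4 arrays a group). General Schwann cell markers had a mean log2 level of 9.50 to 10.01 over the 16 arrays, and injured 7 DPI array 1 stood apart, with skeletal muscle markers at 9.50 and at 6.84 to 7.73 on the other 15. The calls of the FGF ligands below did not depend on that array. Levels of different genes were not compared as amounts of mRNA, because each probe set has its own brightness. Where a share of genes below is given, it is the mean share over the arrays of a group and only marks a low signal.

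At 7 DPI, Fgf5 and Fgf23 rose and Fgf1 and Fgf7 fell, and at 3 DPI Fgf5 rose and Fgf1 and Fgf7 fell. At 7 DPI 2 of 9 measured genes were called higher, where 2.48% of all genes were, and 2 of 9 were called lower, where 2.17% of all genes were. At 3 DPI 1 of 9 was called higher, against 3.25% of all genes, and 2 of 9 were called lower, against 2.55%. With the adjusted p alone, without the fold minimum, 2 were higher (19.1% of all genes) and 6 lower (13.0%) at 7 DPI. At 3 DPI the same rule gave 2 higher (18.8%) and 2 lower (14.7%). The 9 genes had a median log2 change of -0.42 at 7 DPI and -0.09 at 3 DPI, and over all genes the medians were -0.00 and -0.01. The genes were picked for study with earlier results of these arrays known, so these shares describe the genes and are not evidence for the family as a whole.

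The upstream sequences of the genes that were called at both days are shown here, since Fgf5, Fgf1 and Fgf7 had the largest changes and their promoters can be set side by side. Each line holds the 250 bases before the RefSeq transcript start in the rat assembly GRCr8, written 5′ to 3′ on the strand of the gene, and capitals mark a match to a searched motif. Fgf5 lies on the minus strand at chr14:11650244-11650493, Fgf1 on the minus strand at chr18:30961394-30961643, and Fgf7 on the plus strand at chr3:133735377-133735626.
Fgf5: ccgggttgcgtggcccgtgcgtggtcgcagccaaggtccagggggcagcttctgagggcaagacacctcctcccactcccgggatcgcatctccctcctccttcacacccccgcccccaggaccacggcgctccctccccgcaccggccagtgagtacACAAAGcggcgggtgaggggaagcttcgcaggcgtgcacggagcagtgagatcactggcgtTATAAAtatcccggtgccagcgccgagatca
Fgf1: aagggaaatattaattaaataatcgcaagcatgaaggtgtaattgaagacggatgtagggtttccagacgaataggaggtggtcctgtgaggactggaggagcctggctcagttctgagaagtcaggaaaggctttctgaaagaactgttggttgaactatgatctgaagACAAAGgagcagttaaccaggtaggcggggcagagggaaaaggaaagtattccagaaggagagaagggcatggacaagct
Fgf7: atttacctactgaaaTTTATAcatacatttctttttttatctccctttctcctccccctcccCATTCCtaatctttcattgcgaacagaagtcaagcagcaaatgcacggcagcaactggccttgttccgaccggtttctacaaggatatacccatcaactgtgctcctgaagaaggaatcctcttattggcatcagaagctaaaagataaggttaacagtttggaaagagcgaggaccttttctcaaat
The Fgf5 sequence was GC-rich, with 66.8% G and C and 21 CpG dinucleotides, and the Fgf1 and Fgf7 sequences had 46.0% and 41.6% G and C, with 4 and 5 CpG dinucleotides. The median over 33469 rat promoters was 51.2% G and C. The Fgf5 sequence held a TATA box, TATAAA, from 31 to 26 bases before the start (positions -31 to -26), and a SOX core, ACAAAG, at -92 to -87. The Fgf1 sequence held a SOX core at -80 to -75. The Fgf7 sequence held the TEAD motif GGAATG on the opposite strand, where it reads CATTCC, at -188 to -183, and the TATA letters on the opposite strand, reading TTTATA, at -235 to -230.

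The 6 motifs were searched on both strands, and no matches overlapped in these sequences. In promoters of the same length, TATAAA was found in 12.9%, ACAAAG in 16.3%, GGAATG in 12.1%, the RUNX core TGTGGT in 14.5%, the AP-1 motif TGANTCA in 6.3% and the EGR motif GCGTGGGNG in 1.5%. Of the 10 genes 8 were in the promoter table, all but Fgf23 and Fgfr1. None of these 8 windows held the AP-1 or the RUNX letters, and the Fgfr3 window alone held the EGR motif, at -150 to -142. The windows of Fgf2, Fgf10, Fgf18 and Fgfr2 held none of the 6 motifs. A match is a string of letters and was not measured as a binding site. Human FGF1 is known to be transcribed from several alternative promoters, and only the start that RefSeq lists for the rat gene is shown.

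Fgf5, a secreted ligand best known for ending the growth phase of hair follicles, showed the largest change of the 9 genes at 7 DPI. Its log2 values were 9.98, 10.05, 10.10 and 9.61 in injured nerves at 7 DPI and 6.61, 5.79, 6.23 and 5.88 in contralateral nerves at 7 DPI. They were 9.54, 9.59, 9.58 and 9.66 in injured nerves at 3 DPI and 5.99, 6.17, 6.01 and 6.19 in contralateral nerves at 3 DPI. Every injured array was above every contralateral array by a wide margin, and the injured arrays of 3 DPI lay very close together. Fgf5 rose by 3.81 ± 0.15 at 7 DPI (14.0-fold, limma adjusted p = 6.58e-12) and by 3.50 ± 0.15 at 3 DPI (11.3-fold, limma adjusted p = 2.05e-11). Its contralateral signals were low, with 33.1% of genes below at 7 DPI and 32.2% at 3 DPI. It was not measured whether they exceeded background, so the fold values describe the signal and may differ from the mRNA ratio. The injury effect was larger at 7 DPI than at 3 DPI by 0.30 ± 0.21, which did not pass the test (limma adjusted p = 0.58, 95% interval -0.13 to 0.74). The interval includes both no difference between the days and a larger effect at 7 DPI.

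Fgf1, a ligand without a classical signal peptide that binds all of the FGF receptors, changed by a similar size in the other direction. In injured nerves at 7 DPI the log2 values of Fgf1 were 7.54, 7.65, 7.60 and 7.25, and in contralateral nerves at 7 DPI they were 11.14, 11.10, 11.18 and 11.16. They were 7.70, 7.53, 7.96 and 7.86 in injured nerves at 3 DPI and 11.00, 11.26, 11.57 and 11.30 in contralateral nerves at 3 DPI. The injured and contralateral arrays did not overlap on either day, and the 4 contralateral arrays of 7 DPI were almost equal. Fgf1 fell by 3.63 ± 0.12 at 7 DPI (12.4-fold lower, limma adjusted p = 7.33e-13) and fell by 3.52 ± 0.12 at 3 DPI (11.5-fold lower, limma adjusted p = 1.85e-12). The difference between the days was -0.11 ± 0.17 (limma adjusted p = 0.843, 95% interval -0.46 to 0.24). In these bulk samples fewer cells of a type and less RNA per cell cannot be told apart. Markers of myelinating Schwann cells moved the same way, with 10 of 10 measured markers called lower on both days. Their mean log2 level was 7.90 to 8.14 in injured and 11.57 to 11.87 in contralateral nerves at 7 DPI, and 9.01 to 9.44 in injured and 11.83 to 12.10 in contralateral nerves at 3 DPI. The median log2 change of these 10 markers was -4.55 at 7 DPI and -2.71 at 3 DPI. For the difference of the injury effects, 4 of the 10 were called lower, while Fgf1 did not pass that test. The part of myelinating Schwann cells in the result for Fgf1 was not tested.

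Fgf7, also called keratinocyte growth factor and known as a ligand that mesenchymal cells make for neighbouring epithelium, fell as well. Its log2 values were 8.98, 8.34, 7.86 and 8.45 in injured nerves at 7 DPI and 10.77, 10.72, 10.76 and 10.73 in contralateral nerves at 7 DPI. They were 8.38, 8.60, 9.00 and 8.56 in injured nerves at 3 DPI and 10.66, 10.97, 11.06 and 10.91 in contralateral nerves at 3 DPI. The groups did not overlap on either day, and the injured arrays of 7 DPI were more spread out than those of the other called genes. Fgf7 fell by 2.34 ± 0.18 at 7 DPI (5.07-fold lower, limma adjusted p = 2.72e-08) and fell by 2.27 ± 0.18 at 3 DPI (4.81-fold lower, limma adjusted p = 2.86e-08). The effects of the 2 days differed by -0.08 ± 0.25 (limma adjusted p = 0.939, 95% interval -0.61 to 0.45). None of the 9 measured markers of nerve mesenchymal cells was called on either day in limma, and with the adjusted p alone 2 were higher and 2 lower at 7 DPI and 2 higher and 1 lower at 3 DPI. Their mean log2 level was 10.43 to 10.78 in injured and 10.56 to 10.75 in contralateral nerves at 7 DPI, and 10.39 to 10.62 in injured and 10.14 to 10.63 in contralateral nerves at 3 DPI. The markers of myelinating Schwann cells, 10 of 10 called lower on both days with the levels given for Fgf1, moved the same way as Fgf7 too, and their part in its result was not tested.

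Fgf23, the phosphate-regulating hormone, gave low signals, and its rise was called only at 7 DPI. Fgf23 measured 6.10, 6.70, 6.48 and 6.54 on the log2 scale in injured nerves at 7 DPI and 5.10, 5.26, 4.97 and 4.63 in contralateral nerves at 7 DPI. At 3 DPI the values were 5.56, 6.06, 5.54 and 5.61 in injured nerves and 5.19, 5.37, 4.96 and 4.93 in contralateral nerves. All injured arrays lay above all contralateral arrays of the same day, with a narrow gap at 3 DPI. Fgf23 rose by 1.46 ± 0.16 at 7 DPI (2.76-fold, limma adjusted p = 1.69e-06). At 3 DPI its log2 change of 0.58 ± 0.16 (1.49-fold, limma adjusted p = 0.00825) passed the adjusted p but not the fold minimum. Injured nerves at 7 DPI were higher than injured nerves at 3 DPI by 0.76 ± 0.16 (1.70-fold, limma adjusted p = 0.0104).

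The test of the difference between the injury effects of Fgf23 gave 0.89 ± 0.22, just short of the threshold (limma adjusted p = 0.0561, 95% interval 0.41 to 1.36), and its adjusted p was under 0.05 in 6 of 22 alternatives. Without injured 3 DPI array 2 it was 1.01 (adjusted p = 0.0287), without injured 7 DPI array 1 it was 1.00 (adjusted p = 0.0233), and without contralateral 7 DPI array 2 it was 0.98 (adjusted p = 0.0476). In each case the array removed lay furthest against the difference within its group, so the difference had to grow. Leaving out each array in turn gave 0.77 to 1.01, and limma adjusted p values over all alternatives reached 0.124. Fgf23 was among the dimmest 30% of genes by mean signal, detection calls were not used here, and whether its signal in contralateral nerves exceeded background was not measured. Kl, which encodes Klotho, had log2 changes of -0.03 ± 0.10 at 7 DPI (limma adjusted p = 0.863) and -0.03 ± 0.10 at 3 DPI (limma adjusted p = 0.865). Kl signals were low as well, with group means of 5.46 to 5.54 and 20.5% to 21.5% of genes below. Whether they exceeded background was not measured, so these changes do not show whether Kl was expressed.

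**Figure D1:**
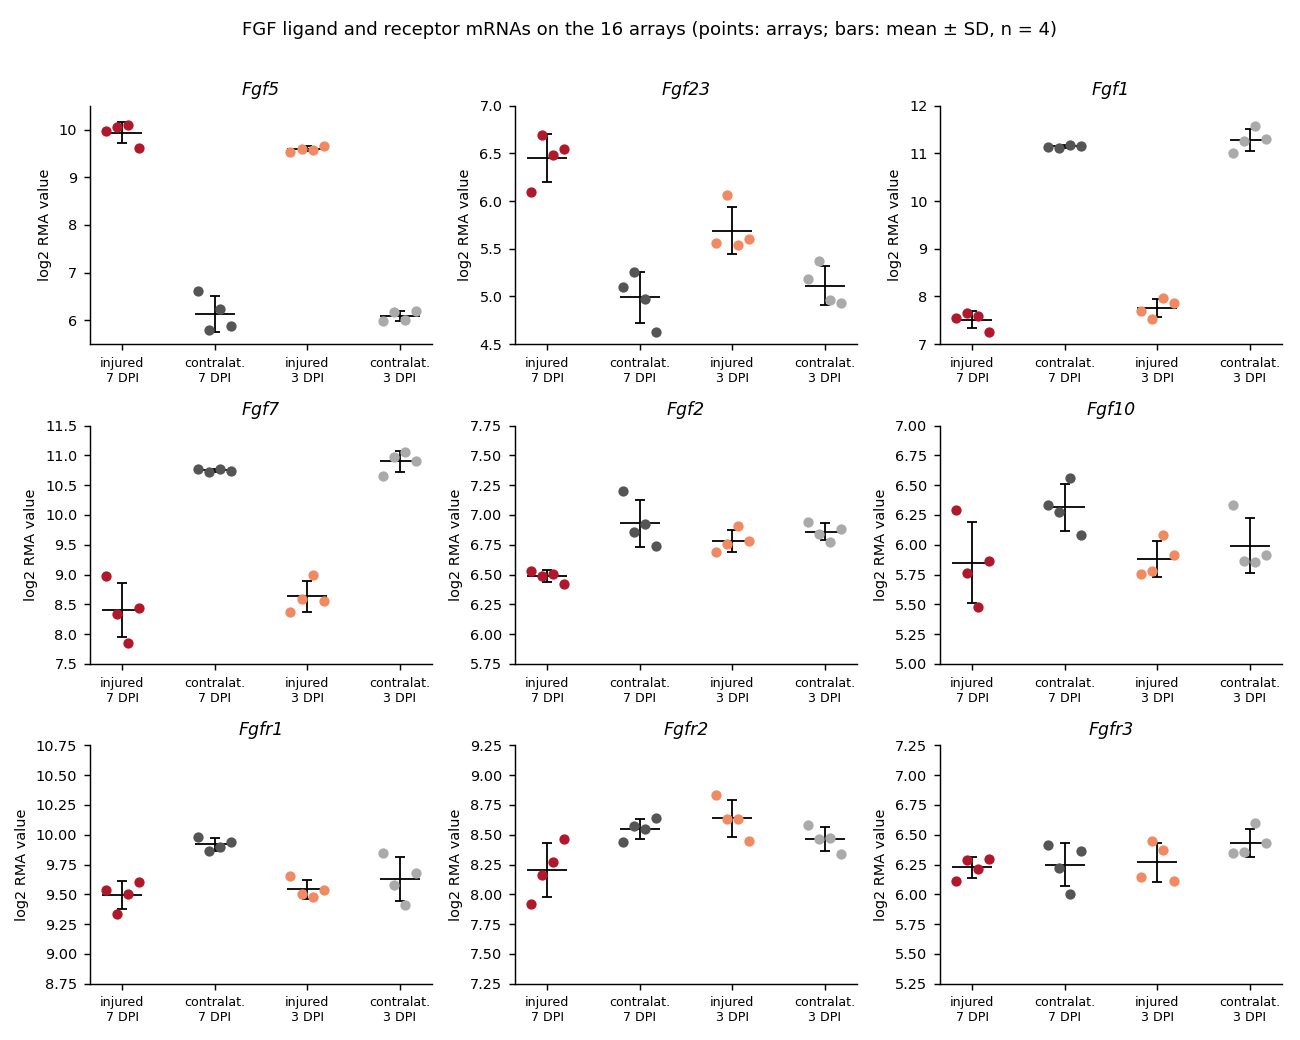
Log2 RMA values of the 9 measured FGF ligands and receptors (vertical axes, a separate scale for each gene) in injured and contralateral nerves at 7 and 3 DPI. Points are arrays and bars are the mean ± SD of 4 arrays; Fgf5 lies between 9.54 and 10.10 in injured nerves and between 5.79 and 6.61 in contralateral nerves, while Fgf1 and Fgf7 show the opposite order without overlap.

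Fgf2 and Fgf10, the remaining ligands, had smaller changes at 7 DPI that passed the adjusted p without reaching 2-fold. Fgf2 is known as basic FGF, a mitogen for many cell types. Its log2 values were 6.53, 6.49, 6.50 and 6.42 in injured nerves at 7 DPI and 7.20, 6.86, 6.92 and 6.74 in contralateral nerves at 7 DPI. They were 6.69, 6.75, 6.90 and 6.78 in injured nerves at 3 DPI and 6.94, 6.84, 6.77 and 6.88 in contralateral nerves at 3 DPI. The arrays did not overlap at 7 DPI and overlapped at 3 DPI. The log2 change of Fgf2 was -0.44 ± 0.09 at 7 DPI (1.36-fold lower, limma adjusted p = 0.000629) and -0.08 ± 0.09 at 3 DPI (limma adjusted p = 0.567). The difference between these effects, -0.37 ± 0.12, did not pass the test (limma adjusted p = 0.167), so the days are not shown to differ.

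Fgf10 is a mesenchymal ligand of limb and lung development and a close relative of Fgf7. On the log2 scale Fgf10 measured 6.30, 5.77, 5.48 and 5.86 in injured nerves at 7 DPI and 6.34, 6.28, 6.56 and 6.08 in contralateral nerves at 7 DPI. The values were 5.76, 5.78, 6.08 and 5.91 in injured nerves at 3 DPI and 6.33, 5.87, 5.86 and 5.92 in contralateral nerves at 3 DPI. Fgf10 signals were low, with 28.0% to 36.8% of genes below in the 4 groups, and whether they exceeded background was not measured. The groups overlapped on both days. Its log2 change was -0.46 ± 0.15 at 7 DPI (limma adjusted p = 0.0288) and -0.11 ± 0.15 at 3 DPI (limma adjusted p = 0.653). The result at 7 DPI was lost under 9 of 25 alternatives, including the removal of contralateral array 1 or 3 or of injured array 2, 3 or 4, with adjusted p values up to 0.117. Against the contralateral arrays of both days pooled, the 7 DPI change of Fgf10 was -0.30. The contralateral nerves had a log2 difference of 0.32 ± 0.15 between 7 DPI and 3 DPI, without passing the test (limma adjusted p = 0.458). The injured nerves of the 2 days differed by -0.03 ± 0.15 (limma adjusted p = 0.952). Adipocyte markers were also lower in injured than in contralateral nerves at 7 DPI, with 4 of 7 called lower and a mean log2 level of 7.05 to 8.04 in injured and 7.86 to 8.92 in contralateral nerves. At 3 DPI that level was 6.85 to 7.45 in injured and 7.13 to 8.13 in contralateral nerves. Without contralateral 7 DPI arrays 1 and 2, where that level was highest, the log2 change of Fgf10 was -0.47 (limma adjusted p = 0.116). Contralateral 7 DPI array 3, which stayed in, had a level of 8.51, above every injured array, so this removal cannot separate Fgf10 from adipocyte content. The array with the highest adipocyte level also had the highest Fgf10 value in each group except contralateral 7 DPI. The part of adipocytes in the result for Fgf10 was not tested.

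The log2 changes of the 3 receptors were smaller in size than those of the 4 called ligands on each day, and no receptor was called. Fgfr1 encodes the receptor that is known as widely expressed in mesenchymal and neural tissue. Its log2 values were 9.54, 9.33, 9.50 and 9.60 in injured nerves at 7 DPI and 9.98, 9.86, 9.89 and 9.94 in contralateral nerves at 7 DPI. They were 9.65, 9.50, 9.48 and 9.53 in injured nerves at 3 DPI and 9.85, 9.58, 9.41 and 9.68 in contralateral nerves at 3 DPI. The 4 contralateral arrays of 7 DPI stood above all 12 others, narrowly in the case of the highest contralateral array of 3 DPI. The log2 change was -0.42 ± 0.09 at 7 DPI (1.34-fold lower, limma adjusted p = 0.00101) and -0.09 ± 0.09 at 3 DPI (limma adjusted p = 0.515). Against the contralateral arrays of both days pooled, the 7 DPI change was -0.28. The contralateral nerves themselves had a log2 difference of 0.29 ± 0.09 between 7 DPI and 3 DPI, without passing the test (limma adjusted p = 0.221), and the injured nerves of the 2 days differed by -0.05 ± 0.09 (limma adjusted p = 0.841).

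Fgfr2 encodes the receptor whose epithelial splice form binds Fgf7 and Fgf10. Injured nerves at 7 DPI had Fgfr2 values of 7.92, 8.16, 8.27 and 8.46 on the log2 scale, and contralateral nerves at 7 DPI had 8.44, 8.57, 8.55 and 8.64. The values were 8.83, 8.63, 8.63 and 8.45 in injured nerves at 3 DPI and 8.58, 8.46, 8.47 and 8.34 in contralateral nerves at 3 DPI. The groups overlapped on both days, and the lowest of the 16 values was on an injured array of 7 DPI. The log2 change was -0.35 ± 0.10 at 7 DPI (limma adjusted p = 0.0164) and 0.17 ± 0.10 at 3 DPI (limma adjusted p = 0.241). These effects differed by -0.52 ± 0.15, which did not pass the test (limma adjusted p = 0.0992) except without injured 7 DPI array 4, where the adjusted p was 0.0426. The injured nerves of 7 DPI were below those of 3 DPI by a log2 difference of -0.43 ± 0.10 (limma adjusted p = 0.0264).

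Injured 7 DPI array 1 held the lowest Fgfr2 value, and without it the change at 7 DPI was -0.25 (adjusted p = 0.0611). That array also held the highest mean log2 level of skeletal muscle markers, 9.50, against 6.84 to 7.55 on the other injured arrays of 7 DPI and 7.10 to 7.56 on the contralateral arrays of that day. Its part in the result for Fgfr2 was not tested beyond leaving the array out. The difference between the injured nerves of the 2 days was lost under 7 of 23 alternatives. It was lost when only the injured groups of both days entered the model (adjusted p = 0.1025), and likewise without this array (0.0757), without injured 7 DPI array 2 (0.0666) and without injured 3 DPI array 1, 2 or 3 (0.0874, 0.0594 and 0.0604).

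Fgfr3, a receptor known as a brake on bone growth, had log2 values of 6.11, 6.29, 6.21 and 6.30 in injured nerves at 7 DPI and 6.41, 6.22, 6.00 and 6.36 in contralateral nerves at 7 DPI. The values were 6.14, 6.44, 6.37 and 6.11 in injured nerves at 3 DPI and 6.35, 6.35, 6.60 and 6.43 in contralateral nerves at 3 DPI. The groups overlapped on both days. The log2 change was -0.02 ± 0.10 at 7 DPI (limma adjusted p = 0.896, 95% interval -0.23 to 0.19) and -0.16 ± 0.10 at 3 DPI (limma adjusted p = 0.239, 95% interval -0.38 to 0.05). The intervals leave out a 2-fold change of the Fgfr3 signal in either direction. That signal was rather low, with group means of 6.23 to 6.43 and 35.4% to 39.8% of genes below. It was not measured whether the signal exceeded background, so the intervals do not exclude a larger change of the mRNA.

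**Figure D2:**
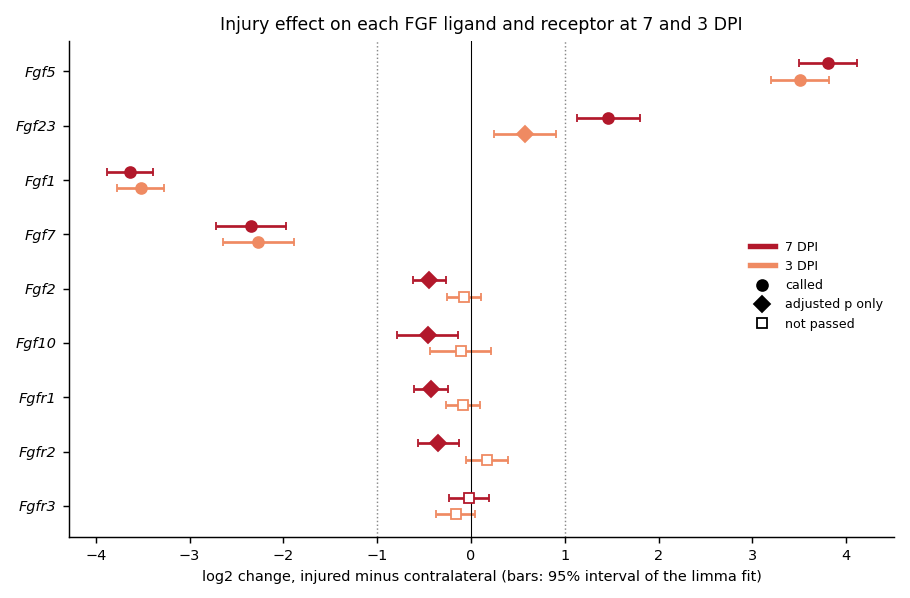
Log2 change of each gene (horizontal axis, injured minus contralateral, bars 95% intervals of the limma fit) at 7 DPI and 3 DPI, with dotted lines at a 2-fold change. Fgf5 lies at 3.81 and 3.50, Fgf1 at -3.63 and -3.52 and Fgf7 at -2.34 and -2.27, and the receptors lie between -0.42 and 0.17.

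Across days, none of the 9 genes passed the adjusted p in limma for the difference of the injury effects, where 1.72% of all genes did, and 4 of them (Fgf2, Fgf23, Fgfr1 and Fgfr2) had an unadjusted p under 0.05. Between the injured nerves of 7 and 3 DPI, 2 of 9 genes passed the adjusted p, Fgf23 higher and Fgfr2 lower at 7 DPI, against 4.02% of all genes. Between the contralateral nerves of 7 and 3 DPI, none of 9 passed in limma, against 0.0716% of all genes, and Fgfr1 alone had an unadjusted p under 0.05. The 2 injury comparisons use separate control arrays, while the comparison of injured nerves reuses arrays of both.

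The other genes of the pathway were described from 9 lists with 95 genes, of which 86 were measured. At 7 DPI 3 of the 86 were called higher and none lower, against 2.48% and 2.17% of all genes. At 3 DPI 4 were called higher and none lower, against 3.25% and 2.55% of all genes. With the adjusted p alone, 23 were higher and 12 lower at 7 DPI, against 19.1% and 13.0% of all genes. At 3 DPI 25 were higher and 12 lower by that rule, against 18.8% and 14.7%. The same shares of all genes stand beside the counts of the single lists below. The median log2 change over the 86 genes was -0.02 at 7 DPI and -0.00 at 3 DPI, near the medians of all genes given above.

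Among the other ligands, none of 11 measured genes was called on either day. Fgf4, a ligand of early embryos and the limb bud, was the only 1 of the 11 to pass the adjusted p, with log2 changes of -0.79 ± 0.08 at 7 DPI (limma adjusted p = 1.31e-06) and -0.90 ± 0.08 at 3 DPI (limma adjusted p = 1.95e-07). Of the 4 FGF homologous factors, which stay inside the cell and bind voltage-gated sodium channels, none was called. Fgf12 had log2 changes of -0.95 ± 0.12 at 7 DPI (limma adjusted p = 7.60e-06) and -0.77 ± 0.12 at 3 DPI (limma adjusted p = 6.10e-05). Fgf14 passed the adjusted p at 3 DPI alone, with -0.38 ± 0.14 (limma adjusted p = 0.0383), and Fgf11 and Fgf13 passed it on neither day. Fgfr4, the remaining signalling receptor, had log2 changes of -0.19 ± 0.11 and -0.06 ± 0.11 that did not pass. Fgfrl1, a family member without a kinase domain, had 0.22 ± 0.10 at 7 DPI (limma adjusted p = 0.127) and 0.35 ± 0.10 at 3 DPI (limma adjusted p = 0.0139).

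Of 7 measured coreceptors and binding proteins, 2 rose at 7 DPI and 1 at 3 DPI. Flrt3, a membrane protein known to bind FGF receptors and to promote their signalling, had log2 values of 11.51, 11.68, 11.80 and 11.82 in injured and 9.14, 9.23, 9.40 and 9.31 in contralateral nerves at 7 DPI. At 3 DPI its values were 10.83, 10.97, 10.84 and 10.73 in injured and 9.27, 9.32, 9.39 and 9.30 in contralateral nerves. The 4 groups of Flrt3 fell into 3 levels, with the contralateral nerves of both days together at the bottom. Flrt3 rose by 2.43 ± 0.08 at 7 DPI (5.40-fold, limma adjusted p = 9.77e-13) and by 1.52 ± 0.08 at 3 DPI (2.87-fold, limma adjusted p = 2.71e-10). Its effect was larger at 7 DPI by 0.91 ± 0.11 (limma adjusted p = 0.000513), and it was the only 1 of the 86 list genes to pass the adjusted p for this difference. Lctl, a Klotho family member, rose by 1.03 ± 0.16 at 7 DPI (limma adjusted p = 9.21e-05), and at 3 DPI its log2 change was 0.46 ± 0.16 (limma adjusted p = 0.0367). Lctl gave low signals, with means at 7 DPI of 5.33 in contralateral nerves (18.2% of genes below) and 6.37 in injured nerves (38.5%). Whether its signal in contralateral nerves exceeded background was not measured.

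None of 10 measured heparan sulfate core proteins was called, and with the adjusted p alone 2 were higher and 2 lower on each day. Among 19 measured enzymes that build or trim heparan sulfate chains, Extl3 was called higher at 3 DPI and no other gene on either day. Extl3, a glycosyltransferase that starts the chain, rose by 1.08 ± 0.11 at 3 DPI (2.11-fold, limma adjusted p = 8.47e-07), and at 7 DPI its log2 change was 0.65 ± 0.11 (limma adjusted p = 0.000214). With the adjusted p alone, 7 enzymes were higher and 1 lower at 7 DPI, and 6 were higher and none lower at 3 DPI. The list had a median log2 change of 0.21 at 7 DPI and 0.13 at 3 DPI.

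Inside the cell, none of 14 measured receptor adaptors and members of the RAS and ERK cascade was called (with the adjusted p alone 3 higher and 3 lower at 7 DPI, and 5 higher and 4 lower at 3 DPI), and their log2 changes lay between -0.35 and 0.43 at 7 DPI and between -0.38 and 0.52 at 3 DPI. None of 12 feedback inhibitors was called. With the adjusted p alone, 7 inhibitors were higher and 2 lower at 7 DPI, and 6 were higher and 1 lower at 3 DPI, with median log2 changes of 0.34 and 0.19. Dusp6, the phosphatase that inactivates ERK, had log2 changes of 0.88 ± 0.13 at 7 DPI (limma adjusted p = 7.45e-05) and 0.86 ± 0.13 at 3 DPI (limma adjusted p = 7.39e-05), and its arrays did not overlap. Spry4, a Sprouty inhibitor of the cascade, had log2 changes of the other sign, -0.35 at 7 DPI (limma adjusted p = 0.0326) and -0.47 at 3 DPI (limma adjusted p = 0.00482). Dusp6 and Spry4 are not taken by the rule for named genes and were picked once their values were known.

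Of 7 transcription factor genes that respond to FGF signalling, 1 rose at 7 DPI and 2 at 3 DPI. With the adjusted p alone, 2 were higher and 2 lower at 7 DPI, and 3 were higher and 2 lower at 3 DPI. Fosl1, an AP-1 subunit, rose by 2.31 ± 0.19 at 7 DPI (4.97-fold, limma adjusted p = 8.61e-08) and by 2.70 ± 0.19 at 3 DPI (6.49-fold, limma adjusted p = 8.96e-09). Fos, another AP-1 subunit and an immediate early gene, rose by 1.82 ± 0.21 at 3 DPI (3.53-fold, limma adjusted p = 2.98e-06), and at 7 DPI its log2 change was 0.90 ± 0.21 (limma adjusted p = 0.00316). Many signals other than FGF are known to induce both genes. Etv1 and Etv5, ETS factors used as readouts of FGF signalling in embryos, had log2 changes of -0.46 and -0.33 at 7 DPI and -0.46 and -0.32 at 3 DPI that passed the adjusted p without reaching 2-fold. Etv4, the other ETS factor on the list, had 0.02 ± 0.08 at 7 DPI (limma adjusted p = 0.884) and -0.06 ± 0.08 at 3 DPI (limma adjusted p = 0.658). These ETS factors were likewise picked once their values were known. The authors list Etv1 among their markers of endoneurial mesenchymal cells, and the part of these cells in its change was not tested.

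**Figure D3:**
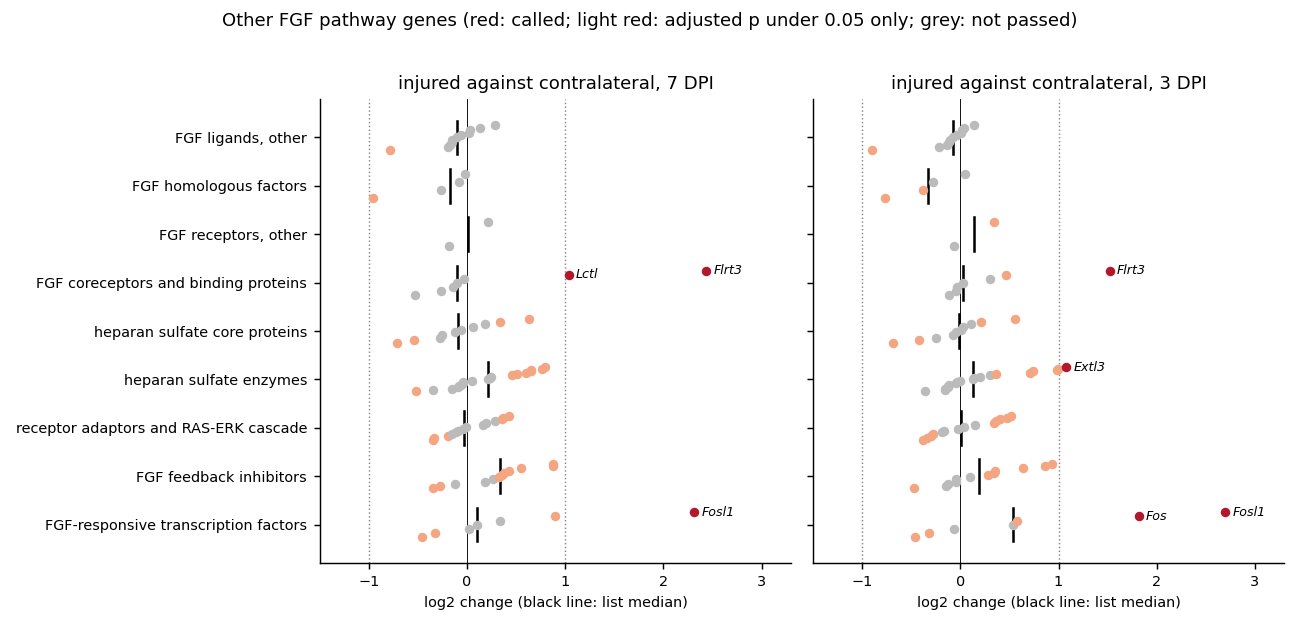
Log2 change (horizontal axes, injured minus contralateral) of the 86 measured genes of 9 FGF pathway lists (rows) at 7 DPI and 3 DPI. Each point is a gene, black lines are list medians and dotted lines mark a 2-fold change; the called genes are Flrt3, Lctl and Fosl1 at 7 DPI and Flrt3, Extl3, Fosl1 and Fos at 3 DPI, all higher in injured nerves.

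For each called ligand the 3 genes with the most similar pattern were taken, by the root mean square difference over the 16 arrays after each gene was centred on its own mean. The nearest to Fgf5 were Runx2, a transcription factor of bone that is also on the list of injured Schwann cell markers (0.23), Btc, the EGF family ligand betacellulin (0.29), and Rgs16, a regulator of G protein signalling (0.37). The nearest to Fgf1 were Frmd3, a FERM domain protein (0.15), Idi1, an enzyme of isoprenoid synthesis (0.18), and Cntf, a neurotrophic cytokine known to be stored in Schwann cells (0.21). The nearest to Fgf7 were Cadm3, a cell adhesion molecule (0.19), Insig1, a regulator of sterol synthesis (0.21), and Gas2, a cytoskeletal protein (0.23). The nearest to Fgf23 were Vangl1, a planar cell polarity protein (0.25), Tpst2, an enzyme that sulfates tyrosines of secreted proteins (0.25), and Vwa5a (0.26).

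The neighbours were chosen for this likeness, so their changes are given as a description without a test. Runx2 had log2 changes of 3.33 at 7 DPI and 3.60 at 3 DPI, and Btc had 3.75 and 3.83. Cntf had log2 changes of -3.83 at 7 DPI and -3.57 at 3 DPI, and Insig1 had -2.23 and -2.18. The pattern that Fgf5 and Fgf1 follow is mainly the split between injured and contralateral nerves, which many genes share, and the ranking was made among all 18166 genes. Markers of injured Schwann cells rose with Fgf5, with 5 of 8 called higher at 7 DPI and 7 of 8 at 3 DPI. Their mean log2 level was 9.04 to 9.34 in injured and 7.37 to 7.54 in contralateral nerves at 7 DPI, and 9.13 to 9.33 in injured and 7.30 to 7.54 in contralateral nerves at 3 DPI. Markers of macrophages were also higher, with 6 of 11 called at 7 DPI and 10 of 11 at 3 DPI, as were 10 of 10 cell division genes on both days. In the other marker lists, at 7 DPI 4 of 7 adipocyte, 2 of 5 perineurial, 1 of 7 endothelial and 1 of 7 mural genes were called lower and 1 of 5 general Schwann cell genes was higher. At 3 DPI 1 perineurial gene was higher and 1 lower, 1 endothelial, 1 of 7 adipocyte and 1 of 4 muscle genes were lower, and 1 of 7 T cell genes was higher. None of 3 B cell genes was called on either day, and none passed the adjusted p alone. The part of each of these cells in the results for Fgf5 and Fgf23 was not tested.

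**Figure D4:**
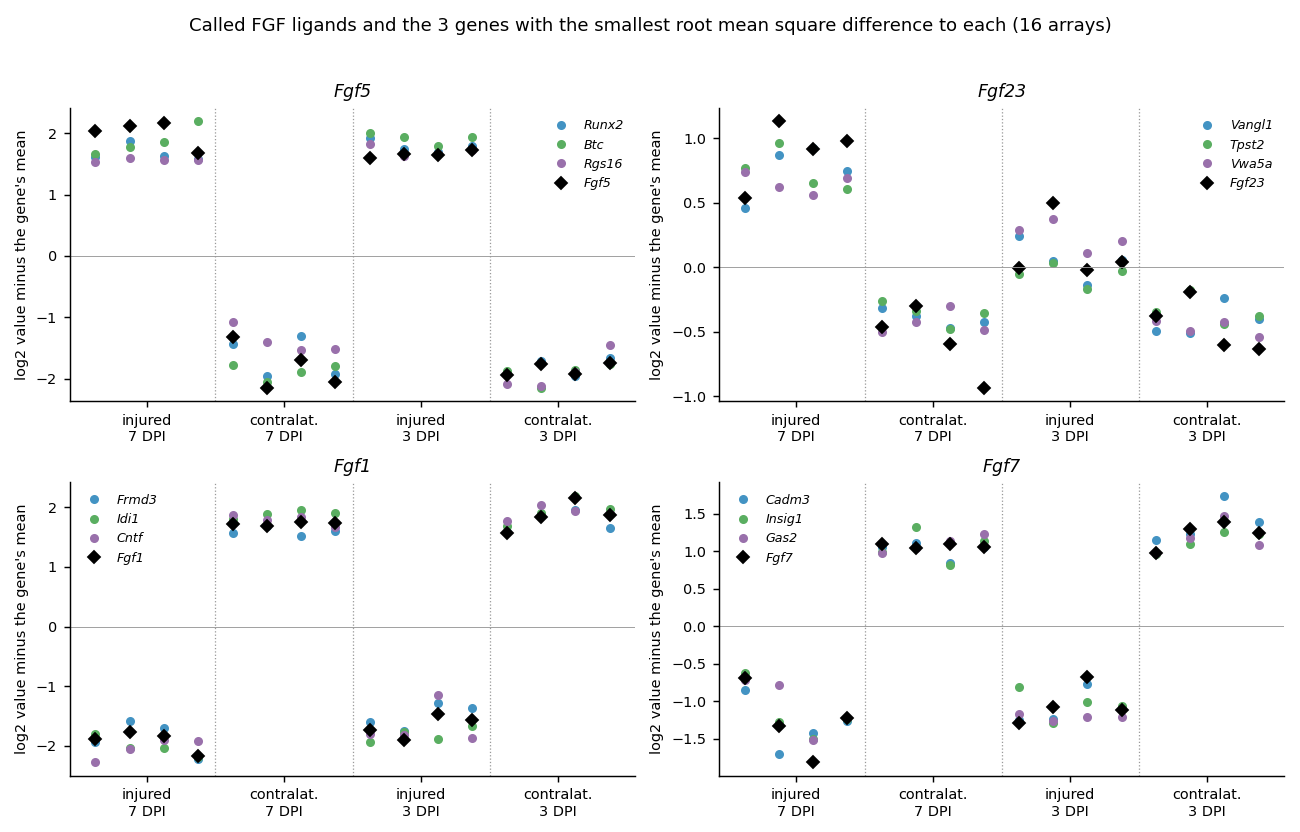
Centred log2 values (vertical axes, log2 value minus the mean of the gene over 16 arrays) of the 4 called ligands (black diamonds) and the 3 genes nearest to each (coloured points) on the 16 arrays, grouped as injured and contralateral at 7 and 3 DPI. Fgf1 and Fgf7 and their neighbours are low in all 8 injured arrays and Fgf5 and its neighbours are high there, and the Fgf23 group is highest in injured nerves at 7 DPI.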

How the data were processed

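Total RNA of the 16 nerves was labelled with biotin and measured on 1-colour Affymetrix Rat Gene 2.0 ST arrays. The authors deposited log2 values made with RMA (background correction, quantile normalisation and summary per probe set), and the submitters' processing notes name the oligo package, whose version is not given in the sources used here. Quantile normalisation hides a change shared by most genes. Array medians were 6.27 to 6.40, correlations within a group were 0.981 to 0.989, and no arrays held identical values. Scanner output was not used here. Precision is limited by the number of arrays.

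Of 36685 probe sets, 18511 had 1 gene symbol in the platform annotation, 575 several and 17599 none. The first kind was used, keeping the probe set with the highest mean of each gene (291 genes had several), which left 18166 genes. Each measured FGF gene had 1 probe set. No genome build is used for the arrays, and coordinates belong to RefSeq sequences of GRCr8.

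The test was that of limma (version 3.58.1, R 4.3.3; functions lmFit and eBayes, 1 fit of 4 group means, no block, 12 residual degrees of freedom), with Benjamini-Hochberg adjustment over all genes. The thresholds (adjusted p under 0.05 and 2-fold) are those the methods give for neuron arrays. Nothing links nerves to separate rats beyond the words biological replicate, so p-values measure the spread between these samples. The fit was tested on simulated data. Tables and plots used Python 3.11.15, pandas 2.3.3 and matplotlib 3.10.9.

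The genes, lists and tests were chosen with earlier results of these data known. Named genes are the 10 listed genes, the other receptors and FGF homologous factors, up to 4 called genes of each pathway list, and the 3 nearest genes to each called ligand; exceptions are named in the text. The 13 marker lists cover nerve, immune and neighbouring cells. Some listed markers and Fgf18 were not analysed here. Alternatives were calls without a fold minimum, removal of the dimmest 30% of genes, averaging probe sets, median centring, cyclic loess, trend and robust settings, fitting the compared groups alone, pooling contralateral arrays, a replicate block and leaving out each array. After seeing the data, contralateral 7 DPI arrays 1 and 2, which had high adipocyte signal, were also left out together.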

Additional observations from a re-analysis of the deposited data

Results flagged for a closer look

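In 36 groups of 4 arrays, 2 held an array far from the other 3, and chance flags about 1 in 20 groups. Contralateral 3 DPI array 1 had a log2 value of 6.33 for Fgf10, against 5.86 to 5.92 on the other arrays of its group, and without it the change at 3 DPI was 0.00. Injured 3 DPI array 2 had a log2 value of 6.06 for Fgf23, against 5.54 to 5.61 on the others, and without it the change at 3 DPI was 0.46, with an adjusted p of 0.0341 in limma.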

How the results depend on the processing

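The calls of Fgf1, Fgf5 and Fgf7 at both days held under every alternative run, and that of Fgf23 at 7 DPI under all 24 that measured it. Leaving out the dimmest 30% of genes removed Fgf23, so 1 gene was called higher at 7 DPI. Without a fold minimum 6 genes were lower at 7 DPI and 2 higher at 3 DPI, and between injured nerves 1 was higher and 1 lower at 7 DPI. The count of genes higher in the difference of the injury effects was 0 to 1 when each array was left out, through Fgf23. Its adjusted p was also under 0.05 with cyclic loess (0.0377) and with trend and robust settings (0.0373). Fgfr1 differed between contralateral nerves without contralateral 3 DPI array 1 (adjusted p = 0.0479), and Fgf2 between injured nerves without contralateral 7 DPI array 1 (0.0194), without the dimmest 30% of genes (0.0370) and with cyclic loess (0.0377).

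Changes near 0 turned sign. Fgfr3 at 7 DPI was 0.0167 with cyclic loess, 0.0443 without contralateral 7 DPI arrays 1 and 2, and -0.105 to 0.0315 when each array was left out. With that pair left out, the difference between contralateral nerves was -0.0255 for Fgf2 and -0.0327 for Fgf5. Leaving out each array gave -0.0177 to 0.135 for Fgf2 and -0.123 to 0.151 for Fgf5 there, -0.177 to 0.0020 for Fgf10 at 3 DPI, and -0.267 to 0.107 for Fgf7 in the difference of the effects. Between injured nerves it gave -0.180 to 0.0936 for Fgf10, -0.0839 to 0.0052 for Fgfr1 and -0.0920 to 0.0179 for Fgfr3.

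The labels number the nerves 1 to 4 in each group. Same-numbered injured and contralateral arrays deviated with correlations of -0.08 to 0.17 at 7 DPI and -0.06 to 0.22 at 3 DPI. On each day 2 of 4 injured arrays correlated best with their own number. The highest correlation of each day, 0.17 and 0.22, was between arrays of the same number. With 4 arrays a group, this cannot decide whether the numbers are pairs. The main fit did not take them as pairs. With the replicate block, 2 genes were called higher and 2 lower at 7 DPI, and 1 higher and 2 lower at 3 DPI. The adjusted p of the Fgf23 difference was then 0.0185, and that of Fgfr2 between injured nerves 0.0544.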
